A study of Mus musculus with 2 samples.

Results

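The 10 genes described here are the transcription factors, cadherins and matrix or cytoskeletal genes by which an epithelial-mesenchymal transition (EMT) is usually followed: Twist1, Snai1, Snai2, Zeb1, Zeb2, Cdh1, Cdh2, Cdh3, Vim and Fn1. They were taken by symbol, and all 10 were found among the 25668 genes of the deposited tables. The tested library came from mouse fallopian tube (oviduct) epithelial organoids in which Trp53 had been knocked out, and the control library from normal organoids labelled WT. The control organoids were grown from a Gt(ROSA)26Sor mouse line that carries Cas9 and EGFP under the CAG promoter, which is active in most cell types, so they are wild type at Trp53 and still transgenic. Both libraries have the treatment label conditioned medium. The age of the mice, and whether the knockout organoids were 1 clone or a pool, is not stated in the labels. With 1 library in each group no difference below has a replicate check.

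In EMT, epithelial cells loosen their contacts and gain the shape and motility of mesenchymal cells. TWIST, SNAIL and ZEB factors bind E-box sequences and repress epithelial genes such as Cdh1, which encodes E-cadherin, the main calcium-dependent adhesion protein of epithelia. N-cadherin, vimentin and fibronectin are classical mesenchymal products, while P-cadherin (Cdh3) is typical of basal and stratified epithelial layers.

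Values are TPM, a level scaled by gene length and to the same total in each library. The number of reads behind each value was estimated from the steps between low TPM values and summed to 27688213 in the knockout library and 100099420 in the control library. A read was worth 3.37 times as many TPM in the knockout library, so very low levels were seen less well there. Trp53 itself was 2.42 TPM in the knockout library and 83.2 TPM in the control library, a ratio of 0.0291 with a 95% exact Clopper-Pearson interval of 0.0230 to 0.0363 that, like the intervals below, covers counting error only. Differences are log2(TPM + 1) in the knockout minus control library, for genes with a mean of at least 1 TPM, and genes past 2-fold on this scale are counted as higher or lower. A gene near 0 TPM in 1 library reaches this mean only through the other library. The filter then fixes its call as higher or lower, as for Twist1, Twist2, Grhl3, Elf5, Nectin3, Fat2, Tnc, Tns1 and Ovgp1 below. Of 11228 genes measured in this way 8.35% were higher and 15.3% lower (937 and 1715 genes, and 1292 and 1321 after quantile normalization, which put the median of all genes at 0.03, against -0.17 as deposited).

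The 10 genes did not move together, and most of them were barely present in either library. Cdh3 was higher, Twist1 was lower and Cdh1 stayed within 2-fold, and these were the 3 members that reached a mean of 1 TPM. Thus 1 of 3 was higher and 1 of 3 lower, beside 8.35% and 15.3% of all measured genes, and their median difference was -0.19, against -0.17 for all measured genes. The other 7 members had levels between 0 and 1.82 TPM in the knockout library and between 0 and 0.748 TPM in the control library. In the control library the order of levels was Cdh1, Twist1, Fn1, Cdh3, Vim, Snai1, Cdh2, Zeb1, Zeb2 and Snai2. In the knockout library it was Cdh1, Cdh3, Snai2, Vim, Snai1, Zeb2 and Fn1, with Twist1, Zeb1 and Cdh2 listed at 0. Neighbours in these orders with under 10 reads each cannot be ranked, nor can Cdh3 and Vim in the control library, at 0.383 and 0.379 TPM from 100 and an estimated 49 reads.

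**Figure D1:**
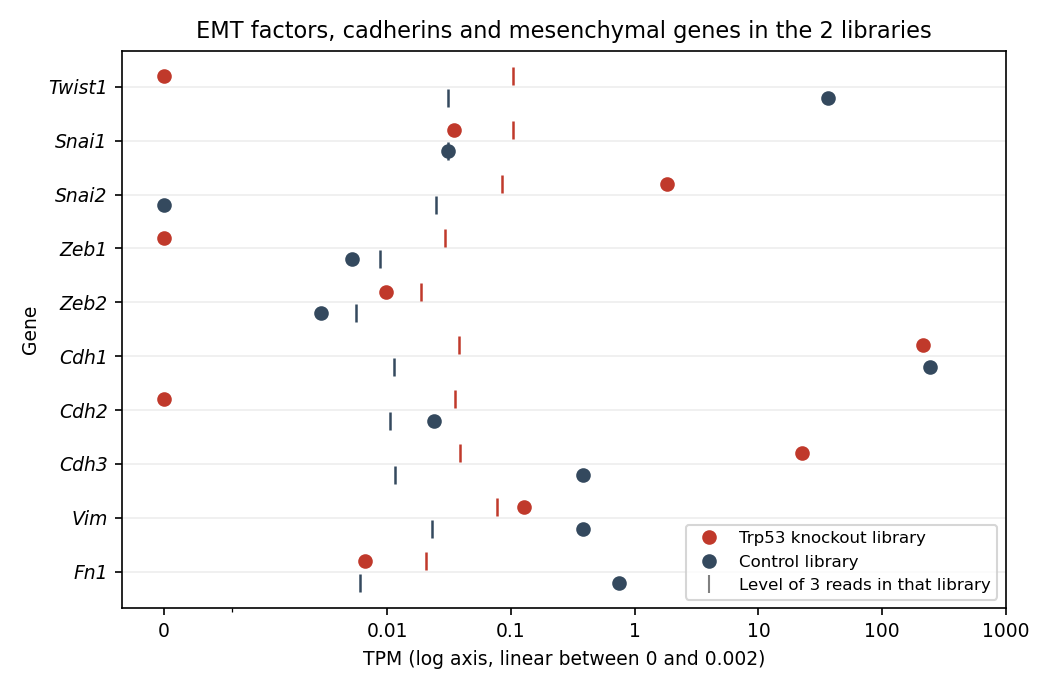
TPM of the 10 genes in the Trp53 knockout library (red) and the control library (dark blue), with a vertical tick at the level of 3 reads for that gene and library. Twist1 lies at 0 in the knockout library against 36.3 TPM in the control library, Cdh3 at 22.4 against 0.383 TPM, and the points of Snai1, Zeb1 and Zeb2 lie at or below the 3-read tick of their library.

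Twist1, a basic helix-loop-helix factor that drives EMT in embryonic mesoderm and neural crest, was the member with the largest difference. It was listed at 0 TPM in the knockout library and at 36.3 TPM in the control library, from 0 and 3518 reads. At the control level, 1045 reads would have been seen in the knockout library. Set against a floor of 3 reads in that library, Twist1 was at least 348-fold lower (difference -5.22). This was the 36th lowest difference of the measured genes. Of 3073 genes at least as high as Twist1 in the control library, 7, Twist1 among them, were listed at 0 in the knockout library.

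Its paralog Twist2, which acts in the dermis and in other connective tissue, showed the opposite. It was 2.78 TPM in the knockout library and listed at 0 in the control library, from an estimated 124 and 0 reads, and so at least 139-fold higher. No stretch of 50 bases of the Twist1 transcript occurs in a transcript of another gene in GENCODE M21, Twist2 included, so no exact 50-base read is shared by the pair. The summed level of both was 2.78 TPM in the knockout library and 36.3 TPM in the control library.

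Upstream windows were not available for Cdh1, Cdh3, Snai2 or Fn1. The 250 bases before the start of Twist1 and of Twist2 are shown, since these paralogs were each listed at 0 in 1 library. They are from RefSeq (GRCm38.p6, plus strand), Twist1 at chr12:33957421-33957670 and Twist2 at chr1:91801211-91801460. Capitals mark CCAAT, searched on both strands and chosen after the sequences were seen.
Twist1: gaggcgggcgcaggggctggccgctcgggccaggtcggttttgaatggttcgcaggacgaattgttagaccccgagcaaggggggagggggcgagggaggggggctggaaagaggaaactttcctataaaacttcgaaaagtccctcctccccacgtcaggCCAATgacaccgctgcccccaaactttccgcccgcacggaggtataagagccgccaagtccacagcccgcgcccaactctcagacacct
Twist2: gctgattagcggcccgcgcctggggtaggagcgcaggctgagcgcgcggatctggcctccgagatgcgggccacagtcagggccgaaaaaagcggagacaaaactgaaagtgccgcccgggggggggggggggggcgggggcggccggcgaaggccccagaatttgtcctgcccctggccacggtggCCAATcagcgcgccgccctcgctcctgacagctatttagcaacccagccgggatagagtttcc
Each window holds 1 CCAAT, as do 33.9% of 32851 RefSeq promoter windows of the same length at least once. The E-box CANNTG, which reads the same on both strands, occurs in neither window and in 66.2% of all windows. The GC content is 62.4% for Twist1 and 68.8% for Twist2, against a median of 52.4%.

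The SNAIL zinc finger factors were low. Snai2 (Slug), which is also a factor of basal epithelial cells, was 1.82 TPM in the knockout library and listed at 0 in the control library, from 65 and 0 reads. It was at least 72.9-fold higher against a floor of 3 reads, and its mean of both libraries lay just under 1 TPM. Of the 50-base stretches of the Snai2 transcript 0.96% also occur in transcripts of other genes, so a small part of its reads is uncertain. Snai1 (Snail) was 0.0349 TPM in the knockout library and 0.0311 TPM in the control library, which were 1 and 3 reads, so no difference was detectable at this depth. Snai3, the family's least studied member, was 3.68 TPM in the knockout library and 0.454 TPM in the control library, a ratio of 8.11 (interval 5.65 to 11.8). Together the SNAIL genes came to 5.53 TPM in the knockout library and 0.485 TPM in the control library.

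**Figure D2:**
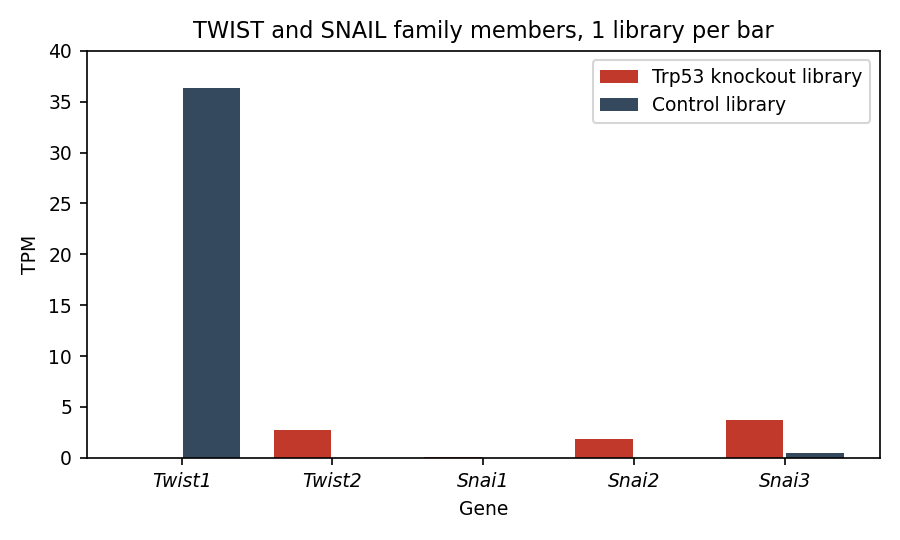
TPM of the TWIST and SNAIL genes, with the Trp53 knockout library (red) left of the control library (dark blue) and 1 library behind each bar, so that there is no error bar. Twist1 stands alone in the control library at 36.3 TPM, while Twist2, Snai2 and Snai3 reach 2.78, 1.82 and 3.68 TPM in the knockout library.

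The ZEB factors, zinc finger and homeodomain repressors of Cdh1, were near the limit of detection in both libraries. Zeb1 was listed at 0 in the knockout library and at 0.0052 TPM in the control library, an estimated 0 and 2 reads. Zeb2 was 0.00973 TPM in the knockout library and 0.00289 TPM in the control library, a TPM ratio of 3.37, which equals the worth of a read between the libraries and so the same number of reads in each, an estimated 2. Neither gene allows a statement on a difference.

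Cdh1 remained the dominant cadherin. It was 212 TPM in the knockout library and 243 TPM in the control library, from 16637 and 64041 reads. The ratio of 0.874 (interval 0.859 to 0.889) is below 1 by more than counting error. Its difference of -0.19 was close to the median of -0.25 for the 607 measured genes of chromosome 8, and relative to that median it was 0.06. The difference was -0.0917 after rescaling by the median ratio and -0.19 after quantile normalization. Without the mitochondrially encoded and 100 highest genes it was -0.17. Its direction thus changed only with the chromosome correction. Cdh1 ranked 647th by level of all genes in the knockout library and 567th in the control library.

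Cdh3 was 22.4 TPM in the knockout library and 0.383 TPM in the control library, from 1734 and 100 reads. This is a ratio of 58.4 (interval 47.7 to 72.1) and a difference of 4.08, the 53rd highest of the measured genes. E-cadherin RNA was 9.49 times as abundant as P-cadherin RNA in the knockout library and 634 times as abundant in the control library, on the length-scaled TPM. Markers of basal and squamous epithelium, in a list written with earlier results of these data known, were higher along with Cdh3. Of 10 markers 9 were measured and all 9 were higher, beside 8.35% of all measured genes. Of these, Krt5, Krt14, Krt6a, Trp63 and Dsg3 were at or below 0.13 TPM in the control library. They passed the mean filter only through the knockout library, which fixed their call as higher. The list summed to 5689 TPM in the knockout library and 87.9 TPM in the control library. Krt5, Krt13 and Krt14, keratins of basal or stratified layers, were 1543, 1140 and 200.4 TPM in the knockout library and 0.13, 4.29 and 0.129 TPM in the control library. The part of such cells in the Cdh3 result was not tested, and in whole-organoid RNA more cells of a type and more RNA per cell cannot be told apart.

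Cdh2 (N-cadherin), the mesenchymal and neural counterpart, was listed at 0 in the knockout library and at 0.0237 TPM in the control library, from an estimated 0 and 7 reads. At the control level 2.08 reads would have been seen in the knockout library, so a difference was not detectable.

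Vim and Fn1 were low in both libraries and lower in the knockout library. Vim, the intermediate filament protein vimentin, was 0.127 TPM in the knockout library and 0.379 TPM in the control library, from an estimated 5 and 49 reads, a ratio of 0.337 (interval 0.107 to 0.857). Fn1, fibronectin, was 0.00657 TPM in the knockout library and 0.748 TPM in the control library, from an estimated 1 and 370 reads. Its ratio was 0.00879 with an interval of 0.000230 to 0.0510, and 110 reads would have been seen in the knockout library at the control level. On the log2(TPM + 1) scale the differences were only -0.29 for Vim and -0.80 for Fn1, since the pseudocount outweighs such levels. Of the 50-base stretches of the Fn1 transcript 2.42% also occur in transcripts of Apol7d, so a small part of its reads is uncertain.

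Markers of fibroblasts and endothelium were close to absent. The 12 fibroblast markers summed to 0.0549 TPM in the knockout library and 0.172 TPM in the control library, 10 and 3 of them were listed at 0, and the highest was Mfap5 at 0.0353 and 0.063 TPM. The 10 endothelial markers summed to 0.102 and 0.208 TPM in the knockout and control library, with 6 and 4 at 0. Among smooth muscle markers, which had 4 of 9 members at 0 in the knockout library and 1 in the control library, Myh11, Des and Cnn1 were at or below 0.0111 TPM in both libraries. The list nevertheless summed to 30.5 and 18.9 TPM in the knockout and control library, through Smtn and Acta2, which are not restricted to muscle. Of 10 immune cell markers, 5 in the knockout library and 3 in the control library were at 0. Their sums of 16.5 and 34.6 TPM came almost wholly from Cd68 and Csf1r, while the pan-leukocyte gene Ptprc was 0.011 and 0.0886 TPM. Cd68 was 16.0 and 25.5 TPM in the knockout and control library. Csf1r, the immune marker past 2-fold, was 0.42 and 8.78 TPM (ratio 0.0478, interval 0.0333 to 0.0668). The part of Csf1r in the results was not tested. Mesothelial markers summed to 241.7 and 280.0 TPM in the knockout and control library, with 1 and 2 of 8 at 0. Msln, which oviduct epithelium can also express, made up most of this at 232 and 243 TPM. Upk3b was 1.41 and 1.27 TPM in the knockout and control library, and Lrrn4 was 0.0304 and 0.0136 TPM. The measured mesothelial marker past 2-fold was Wt1, a zinc finger factor, at 7.85 TPM in the knockout library and 35.3 TPM in the control library. The part of Wt1 in the results was not tested. Bnc1 of the same list had a mean below 1 TPM. It was 0.592 TPM in the knockout library and listed at 0 in the control library, from an estimated 49 and 0 reads. Against a floor of 3 reads Bnc1 was at least 54.6-fold higher. All 10 oviduct epithelium markers were present in both libraries. Of them 2 were higher, 2 lower and 6 within 2-fold, beside 8.35% higher and 15.3% lower over all measured genes. Within 2-fold were, among others, Epcam at 697 and 713 TPM, Krt8 at 1554 and 1984 TPM and Pax8 at 46.0 and 44.8 TPM in the knockout and control library. Krt19 and Cldn3 were higher, at 8176 and 428 TPM in the knockout library and 2314 and 203 TPM in the control library. Ovgp1, the oviduct glycoprotein of secretory cells, was lower at 0.192 and 7.44 TPM in the knockout and control library, and so was Foxj1, a factor of multiciliated cells, at 52.7 and 115.9 TPM.

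**Figure D3:**
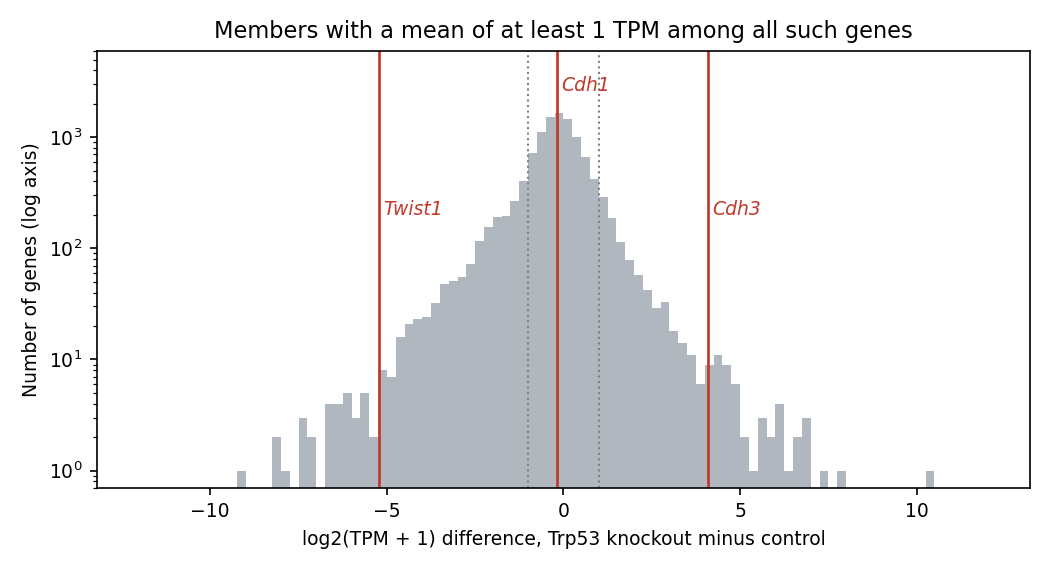
Number of genes (log axis) by log2(TPM + 1) difference, Trp53 knockout minus control, for the 11228 genes with a mean of at least 1 TPM, with red lines at the 3 members among them and dotted lines at 2-fold. Twist1 at -5.22 and Cdh3 at 4.08 lie in the 2 tails, and Cdh1 at -0.19 lies in the peak.

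Genes that work with or against these factors were taken from lists written with earlier results of these data known. Of 17 other EMT transcription factors 10 were measured, with a median difference of -0.0036. Of these 10, 2 were higher and 2 lower, beside 8.35% and 15.3% of all measured genes. The higher ones were Twist2 and Snai3, with the values given with their families. Hmga2, a chromatin protein of embryonic cells, was lower at 0.994 TPM in the knockout library and 14.0 TPM in the control library (ratio 0.0710, interval 0.0549 to 0.0905). Tcf4, an E-protein with which TWIST factors pair, was also lower at 0.794 and 4.36 TPM in the knockout and control library, while the E-protein gene Tcf3 was 31.0 and 23.4 TPM.

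Epithelial factors that oppose EMT were divided. Of 14 listed 13 were measured, and their median was 0.02. Of these 13, 5 were higher and 3 lower, beside 8.35% and 15.3% of all measured genes. Grhl3, a grainyhead factor of surface epithelium, was 7.30 TPM in the knockout library and 0.0241 TPM in the control library, from 360 and 4 reads (ratio 303, interval 117 to 1118). Ovol1, a zinc finger repressor of Zeb1, was 5.38 TPM in the knockout library and 0.862 TPM in the control library, whereas its paralog Ovol2 was 2.46 and 6.92 TPM in these libraries. Klf4, a factor of epithelial differentiation, was 111 TPM in the knockout library and 37.1 TPM in the control library. Lower were Elf5, at 0.104 and 8.57 TPM, and Spdef, at 6.17 and 35.6 TPM, both ETS factors of secretory epithelia. The splicing factor Esrp1 was 40.8 TPM in the knockout library and 17.7 TPM in the control library, and its relative Esrp2 was 22.6 and 22.4 TPM. Grhl3, Klf4 and Esrp1 lie on chromosome 4, whose measured genes had a median difference of 0.63. Relative to that median their differences were 2.39, 0.93 and 0.54, so Klf4 and Esrp1 pass 2-fold only without this correction.

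The partners of E-cadherin were counted next. Of 19 catenins and adherens junction genes found in the files 17 were measured, and 14 of these stayed within 2-fold, with 1 higher, 2 lower and a median of 0.07. These counts are near the 8.35% and 15.3% of all measured genes. Ctnnb1, beta-catenin, was 432 TPM in the knockout library and 568 TPM in the control library, Ctnna1, alpha-catenin, was 147 and 138 TPM, and Ctnnd1, p120-catenin, was 61.6 and 43.5 TPM. Among the nectins, immunoglobulin-like adhesion molecules of the same junction, Nectin1 was 15.6 TPM in the knockout library and 2.86 TPM in the control library. Nectin3, its binding partner, was listed at 0 in the knockout library and at 3.51 TPM in the control library, at least 189-fold lower from an estimated 0 and 1904 reads. Shroom3, which recruits contractile actin to the junction, was 12.9 TPM in the knockout library and 49.4 TPM in the control library.

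Of 15 other classical cadherins listed 3 were measured, and 7 were listed at 0 in both libraries. Of the 3 measured, 0 were higher and 2 lower, beside 8.35% and 15.3% of all measured genes. The 2 lower ones, Cdh6 and Cdh4, passed the mean filter only through the control library, which fixed their call as lower. Cdh24, the measured one within 2-fold, was 0.907 TPM in the knockout library and 1.14 TPM in the control library (ratio 0.798, interval 0.586 to 1.07). Cdh6, a cadherin of kidney and Müllerian epithelium, was listed at 0 in the knockout library and at 4.88 TPM in the control library, from 0 and 2374 reads and so at least 235-fold lower. Cdh4, R-cadherin, was 0.133 TPM in the knockout library and 1.90 TPM in the control library (ratio 0.0701, interval 0.0389 to 0.116). Of 22 atypical cadherins and relatives 7 were measured, with 1 higher, 1 lower and a median of -0.54, beside the same 8.35% and 15.3%. Fat2, a giant cadherin of keratinocytes, was 4.34 TPM in the knockout library and 0.104 TPM in the control library (ratio 41.7, interval 33.6 to 52.3), and Celsr1, a planar polarity cadherin, was 4.98 and 11.9 TPM in these libraries.

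Mesenchymal matrix and effector genes gave no uniform direction. Of 27 found in the files 9 were measured, while 18 had a mean below 1 TPM. All 9 measured genes passed 2-fold, 6 of them higher and 3 lower, for a median difference of 1.55. Over all measured genes 8.35% were higher and 15.3% lower. The fibrillar collagen genes Col1a1, Col1a2, Col3a1, Col5a1 and Col5a2 were all listed at 0 in the knockout library and at or below 0.0085 TPM in the control library. Mmp14, a membrane metalloproteinase, was 54.5 TPM in the knockout library and 3.36 TPM in the control library, Acta2, smooth muscle actin, was 17.8 and 1.07 TPM, and S100a4 was 37.8 and 5.18 TPM. Lower were the matrix proteins Ccn2, at 24.4 TPM in the knockout library and 252 TPM in the control library, Thbs1, at 9.17 and 32.8 TPM, and Tnc, at 0.0218 and 2.15 TPM.

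Of 12 fibronectin receptor and assembly genes 8 were measured, with 1 higher, 2 lower and a median of -0.33, beside 8.35% higher and 15.3% lower over all measured genes. Itga5, the subunit dedicated to fibronectin, was 2.09 TPM in the knockout library and 13.9 TPM in the control library (ratio 0.150, interval 0.127 to 0.176). Tns1, tensin at fibronectin-bound adhesions, was 0.106 and 7.34 TPM in these libraries, and Itga3, mainly a laminin receptor, was 169.8 and 83.5 TPM. Of 11 genes listed with the intermediate filaments other than keratins 5 were measured, with 2 higher and 0 lower, beside 8.35% and 15.3% of all measured genes. Their median of 0.93 was the value of Plec, plectin, which binds such filaments and is not one itself. Nes, nestin, a filament protein of progenitor cells that assembles with vimentin, was 38.2 TPM in the knockout library and 2.56 TPM in the control library (ratio 14.9, interval 13.9 to 16.0). Lmnb1, lamin B1, was 93.7 and 40.9 TPM.

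**Figure D4:**
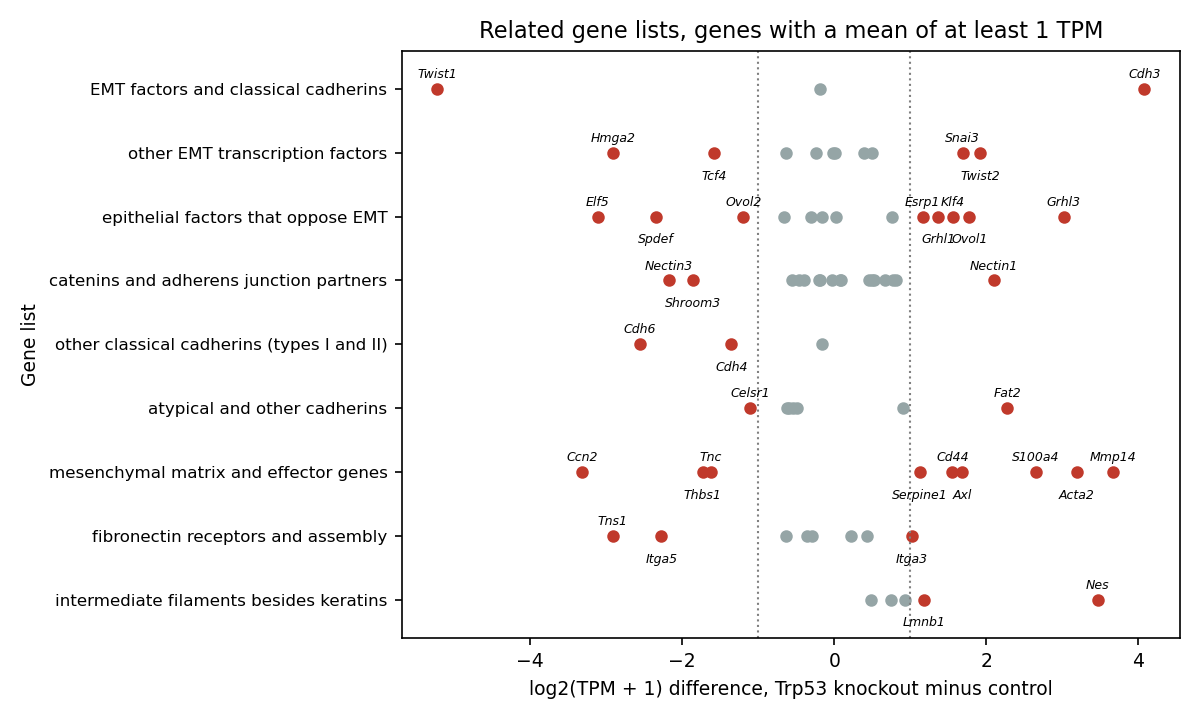
The log2(TPM + 1) difference, Trp53 knockout minus control, of each gene with a mean of at least 1 TPM in the 10-gene set and the related lists, 1 point per gene, with genes past 2-fold (dotted lines) in red and named. Twist1 at -5.22 and Cdh3 at 4.08 bound the plot, and the catenins and adherens junction partners hold 14 of 17 points within the dotted lines.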

How the data were processed

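RNA-seq of 1 Trp53 knockout and 1 control organoid library was analysed. The authors deposited TPM per gene symbol, against genome build GRCm39 per the submitters' processing notes. Strand-preserving paired-end libraries were made, per the labels' protocols. For the aligner, counter, strand setting and annotation: not given in the sources used here. Groups follow the genotype labels.

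Reads were estimated as TPM times the longest protein-coding transcript length (GENCODE M21, an earlier build, so used for names, lengths and chromosomes only) over the commonest step of low values. Of 10222 genes with over 50 reads in both libraries, 30.9% came within 0.02 of a whole number in both, against 0.16% by chance; for other genes the reads are estimates. Values are deposited TPM, a pseudocount of 1 and a mean TPM filter of at least 1 were used, and no test between genotypes was possible. Ratio intervals are Clopper-Pearson at 95%. Where a library lists 0, a floor of 3 reads gives the bound. Reads are not independent molecules, so intervals and floors cover counting error only.

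Named genes are Trp53, the 10 members and up to 3 genes past 2-fold in each direction per list; others, such as catenins, collagens, Tcf3 and Esrp1, were chosen after their values were seen. A gene of 1 list is not reported here and was left out of its counts. The members and lists were chosen with earlier results of these data known. Alternatives were other pseudocounts, filters, scalings, thresholds and chromosome correction. The counts and the read estimates were tested on simulated data. The simulation used the same transcript lengths to make and to recover the reads, so error from a different annotation was not tested. Python 3.11.15, numpy 2.4.6, pandas 2.3.3, scipy 1.17.1 and matplotlib 3.10.9 were used.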

Additional observations from a re-analysis of the deposited data

How the results depend on the processing

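Cdh3 was at least 2-fold higher and Twist1 at least 2-fold lower under every alternative run. Snai2 joined the higher members, giving 2, with no filter on low values, after quantile normalization, without the mitochondrially encoded and 100 highest genes, and with a pseudocount of 0.1 and no filter. Under this last setting, chosen after seeing the data, Vim and Fn1 joined the lower members, giving 3. The median difference of the members measured, which rests on 3 to 10 genes, was -0.0207 with no filter, -0.0917 after rescaling by the median ratio, 0.76 after quantile normalization, 0.94 without the mitochondrially encoded and 100 highest genes, 0.0602 relative to each gene's chromosome, and -0.13 with a pseudocount of 0.1 and no filter, so it describes no shared direction. Over all genes, 563 were higher and 930 lower with a pseudocount of 5, 267 and 661 at 4-fold, 1459 and 3424 with a pseudocount of 0.1 and no filter, and 1091 were lower at a mean TPM of at least 5. The Trp53 difference was -5.05 with a pseudocount of 0.1 with or without the filter, -3.57 with a pseudocount of 5 and -4.37 after quantile normalization. A pseudocount shrinks the differences of low genes by construction; the cause of the other shifts was not tested. No paired analysis was possible because each group holds 1 library. Depth limits Snai1, Zeb1, Zeb2 and Cdh2, which had at most 7 reads in a library.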

Other observations

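The 3 nearest protein-coding genes on each side of some members were read off by RefSeq gene order. Next but one to Twist1 lies Efcab10, an EF-hand gene, which was also listed at 0 in the knockout library, against 22.8 TPM in the control library. Ferd3l, between them, was listed at 0 in both libraries, and Hdac9, on the other side of Twist1, was 0.00481 TPM in the knockout library and 0.1015 TPM in the control library. Further out, Atxn7l1 was 1.08 TPM in the knockout library and 1.64 TPM in the control library and Snx13 was 5.77 and 11.4 TPM. Around Cdh3 the direct neighbours Zfp90 and Cdh1 stayed within 2-fold, while Has3, a hyaluronan synthase, was 3.61 TPM in the knockout library and 0.0579 TPM in the control library, and Smpd3 was 14.7 and 4.95 TPM. None of the 6 nearest genes to Snai2 passed 2-fold, with differences from -0.95 for Abcc1 to 0.98 for Mcm4. These neighbours were chosen after the values of the members were seen.

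The 3 members on chromosome 2, Snai1, Zeb2 and Vim, sit among genes with a median difference of 0.20, against -0.17 over all genes. Relative to that median the difference of Vim was -0.49.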
